A study of Homo sapiens with 16 samples.

Results

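Blood coagulation factors and their natural inhibitors were followed in 2 human lung cancer cell lines. The set named 8 genes: F3, F7, F10, F5, TFPI, TFPI2, PROS1 and THBD. They were chosen by gene symbol, and 7 of the 8 had a row in the tables of 18227 genes. F10 was not analysed here. Fibrinogen genes were not part of the set. The set was drawn up with the differences between knockout and wild type already known. Those differences are therefore given as a description with no p-value for a member, and the number of members past the threshold is printed only beside the share of all genes. The tests of members below concern the culture and the cell line. They use libraries that also gave the known differences, so their p-values are not fully independent of the choice of members. Differences between knockout effects are built from the same known differences, so their p-values are not independent support. The other gene lists used below were also chosen with earlier results of these data known. Their p-values for knockout against wild type carry the same limit.

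A549 and H2023 are established cell lines derived from non-small cell lung cancers. Wild-type cells of either line were compared with cells labelled as a knockout of ZC3H12A, which encodes Regnase-1, an RNase that cleaves selected mRNAs. Normal culture lasted 3 days, and a stem-cell-enriched culture, called oncosphere culture, lasted 7 days. The 2 lines, the genotypes and the cultures gave 8 groups of 2 libraries each: A549 wild type and A549 knockout in normal culture, the same pair in oncosphere culture, and the corresponding 4 groups of H2023. The libraries labelled knockout came from 1 clone per line, so the edit and other properties of that clone cannot be told apart. Culture type and days in culture changed together and cannot be told apart either. Nothing states that replicate libraries came from separate cultures, so p-values measure the spread between these libraries, which may be technical.

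Coagulation starts when tissue factor, the membrane protein encoded by F3, meets factor VII, a vitamin K-dependent protease encoded by F7. The pair activates factor X (F10). Activated factor X, together with its cofactor factor V (F5), converts prothrombin to thrombin. TFPI blocks tissue factor, factor VII and factor X together, and TFPI2 is a related Kunitz-type protease inhibitor deposited in the extracellular matrix. Thrombomodulin (THBD) on the cell surface turns thrombin towards activation of protein C, and protein S (PROS1) is a cofactor of activated protein C and of TFPI. Factors VII, V and X in plasma come largely from the liver.

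F7 and F5 are shown by the 250 bases before their transcription starts, because these genes had the largest differences between knockout and wild type in the set. F7 lies on the + strand of chromosome 13 at 113105791 to 113120685, and its window is chr13:113105541-113105790. F5 lies on the - strand of chromosome 1 at 169511951 to 169586481, and its window is chr1:169586482-169586731. Sequences and positions are from RefSeq, GRCh38.p14, and run 5′ to 3′ on the gene's strand. Capitals mark matches to the motifs searched.
F7: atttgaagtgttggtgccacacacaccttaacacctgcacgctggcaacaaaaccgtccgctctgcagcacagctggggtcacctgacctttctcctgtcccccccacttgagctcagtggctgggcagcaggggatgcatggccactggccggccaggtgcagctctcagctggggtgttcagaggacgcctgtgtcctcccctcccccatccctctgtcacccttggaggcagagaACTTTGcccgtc
F5: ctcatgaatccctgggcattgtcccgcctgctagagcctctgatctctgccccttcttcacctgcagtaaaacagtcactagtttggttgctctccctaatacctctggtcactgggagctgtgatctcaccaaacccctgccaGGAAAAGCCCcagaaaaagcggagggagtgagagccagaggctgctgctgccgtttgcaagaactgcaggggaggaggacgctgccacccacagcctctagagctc
The motifs searched on both strands were the core of an HNF4 site (ACTTTG), the Sp1 box (GGGCGG), the FOXA site (TGTTTAC), the AP-1 site (TGAGTCA), the C/EBP site (TTGCGCAA), the TATA box as TATAAA, and the longer consensus site of NF-kB, given here by name alone. F7 held 1 match, the HNF4 core on the sense strand, whose first base lay 12 bases before the start. The same letters occurred in 10.3% of 35116 promoters. F5 held 1 match, an NF-kB match on the antisense strand whose first capital lay 106 bases before the start, and 1.73% of promoters held that motif. A match describes letters and is neither a site nor a cause.

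Levels are given as TPM, a measure of transcript abundance scaled by gene length and to a fixed total per library. Differences are on the scale log2(TPM + 1), which understates changes at low levels. They come with the standard error (SE) of 1 limma fit over the 16 libraries, and a gene was called at a Benjamini-Hochberg adjusted p under 0.05 over all 18227 genes. Sums of TPM ran from 991838 to 998125 per library, 13824 to 14508 genes reached 1 TPM, and sequencing depth is unknown. The share of TPM from mitochondrial genes was 10.3% to 18.7% under normal and 19.5% to 25.6% under oncosphere conditions. ZC3H12A was 1.78-fold lower in the A549 libraries labelled knockout in normal culture and 1.19-fold, 1.47-fold and 2.78-fold higher in A549 oncosphere, H2023 normal and H2023 oncosphere culture, so its mRNA did not check the labels. All 6 epithelial markers had rows and reached 1 TPM in every group except A549 knockout in normal culture, where 4 did. The alveolar markers NKX2-1, SFTPB, SFTPC and SFTPA1 had no row, and NAPSA, the fifth, lay between 1.02 and 6.03 TPM.

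**Figure D1:**
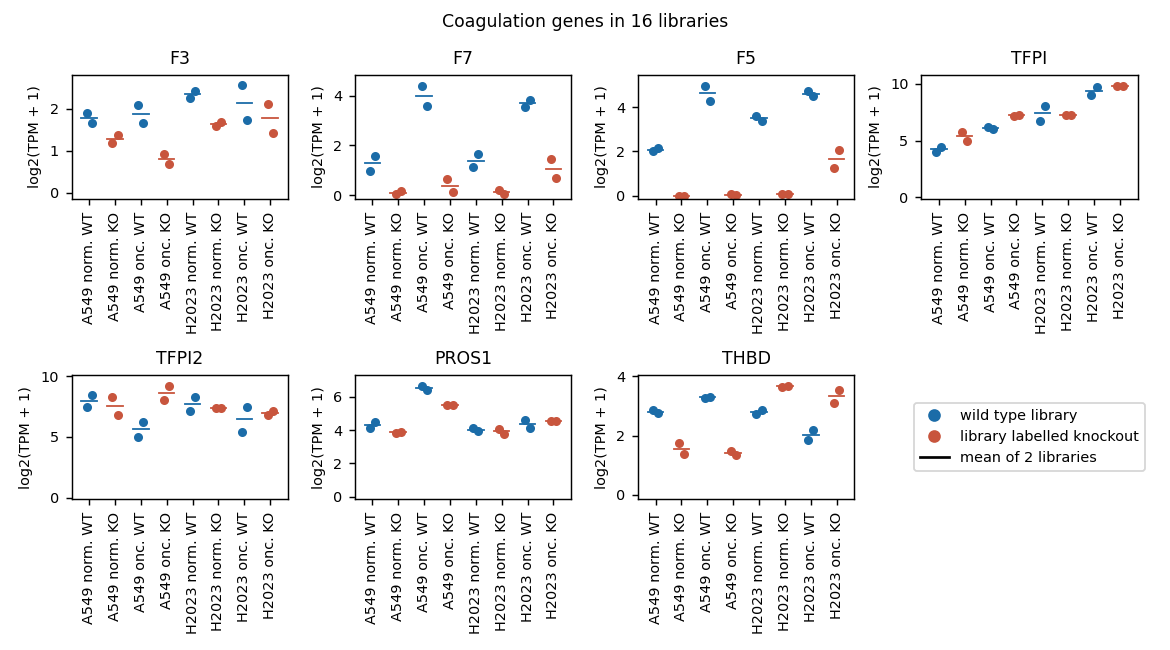
Levels of the 7 coagulation genes on a log2(TPM + 1) axis in the 8 groups (norm., normal culture; onc., oncosphere culture; WT, wild type; KO, labelled knockout); points are the 2 libraries of a group and lines their means. F5 and F7 libraries labelled knockout lie below the wild-type libraries of the same line and culture in every pair of groups, while THBD lies lower in A549 and higher in H2023.

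The members differed widely in level. In wild-type A549 in normal culture the group means fell in the order TFPI2 (258 TPM), PROS1 (19.0 TPM), TFPI (18.3 TPM), THBD (5.98 TPM), F5 (3.25 TPM), F3 (2.45 TPM) and F7 (1.48 TPM). In wild-type H2023 oncospheres TFPI led with 662 TPM, followed by TFPI2 at 109 TPM, F5 at 23.3 TPM, PROS1 at 19.8 TPM, F7 at 12 TPM, F3 at 3.59 TPM and THBD at 3.08 TPM. Per length, the mRNAs of TFPI, TFPI2 and PROS1 were thus more abundant than that of tissue factor in both groups, whereas THBD lay above F3 in the first and below it in the second. The ratio of TFPI to F3 TPM ranged from 5.59 in an A549 wild-type library in normal culture to 519 in an H2023 knockout library in oncosphere culture.

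The initiators are taken first. F3 was low throughout, between 0.6 and 4.88 TPM. In A549 normal culture it read 2.75 and 2.14 TPM in wild type and 1.26 and 1.59 TPM in knockout. In A549 oncospheres it read 3.24 and 2.16 TPM in wild type and 0.91 and 0.6 TPM in knockout, and in H2023 normal culture 3.76 and 4.39 against 2.02 and 2.21 TPM. The knockout libraries were the lower ones in these 3 pairs, by 1.72-fold, 3.58-fold and 1.93-fold. In H2023 oncospheres the wild-type libraries at 4.88 and 2.3 TPM overlapped the knockout libraries at 3.33 and 1.7 TPM. The log2 fold changes deposited by the authors for F3 were -0.20 (SE 0.46) in A549 normal culture and -1.71 (SE 0.49) in A549 oncospheres. In H2023 they were -0.87 (SE 0.35) in normal culture and -0.86 (SE 0.48) in oncospheres. The F3 fold in A549 normal culture thus depended on the measure.

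F7, the gene of a coagulation protease, was lower in the knockout libraries of both lines in both cultures. In A549 normal culture wild type read 0.98 and 1.97 TPM and knockout 0.03 and 0.13 TPM. In A549 oncospheres wild type read 20.13 and 11.07 TPM and knockout 0.58 and 0.09 TPM. In H2023 the wild-type values were 1.19 and 2.16 TPM in normal culture and 10.73 and 13.22 TPM in oncospheres, against knockout values of 0.16 and 0.03 TPM and of 1.71 and 0.62 TPM. No knockout library reached a wild-type library of its line and culture. The means were 18.4-fold lower in A549 normal culture, 46.6-fold in A549 oncospheres, 17.6-fold in H2023 normal culture and 10.3-fold in H2023 oncospheres, from knockout levels that were all under 2 TPM.

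F5, the gene of the cofactor of activated factor X, had the widest span. In A549 normal culture wild type read 3.03 and 3.47 TPM, and both knockout libraries were listed at 0, so no fold is given. In A549 oncospheres the wild-type libraries read 30.3 and 18.44 TPM and the knockout libraries 0.05 and 0.02 TPM, a 696-fold difference of means. In H2023 normal culture 11.23 and 9.38 TPM stood against 0.05 and 0.06 TPM, a 187-fold difference. In H2023 oncospheres 25.16 and 21.48 TPM stood against 1.41 and 3.15 TPM, a 10.2-fold difference. F5 and F7 were thus lower without overlap in all 4 comparisons. The same pattern was met in 330 of the 18227 genes, or 1.81%.

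TFPI ran the other way in A549. Wild type read 15.37 and 21.19 TPM in normal culture and 70.24 and 62.5 TPM in oncospheres, against 54.17 and 31.07 TPM and 144.76 and 150.11 TPM in knockout. The knockout means were 2.33-fold and 2.22-fold higher, with no overlap. In H2023 normal culture wild type read 106.58 and 258.9 TPM, a spread that enclosed the knockout values of 152.31 and 152.83 TPM. In H2023 oncospheres the knockout libraries at 906.25 and 881.55 TPM lay above wild type at 506.9 and 817.37 TPM, by 1.35-fold in the means.

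TFPI2 was abundant and poorly repeatable. Wild-type replicates differed 2.00-fold in A549 normal culture (172.13 and 344.63 TPM), 2.35-fold in A549 oncospheres (31.74 and 74.61 TPM), 2.27-fold in H2023 normal culture (140.57 and 318.86 TPM) and 4.22-fold in H2023 oncospheres (41.94 and 176.99 TPM). The knockout libraries read 316.95 and 111.45 TPM, 256.26 and 585.8 TPM, 169.13 and 168.79 TPM, and 112.37 and 139.94 TPM in the same order. Only in A549 oncospheres did the groups not overlap, with knockout 7.92-fold higher.

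PROS1 differed with genotype mainly in A549 oncospheres. There wild type read 98.53 and 83.03 TPM and knockout 44.68 and 44.01 TPM, 2.05-fold lower. In A549 normal culture 16.35 and 21.55 TPM stood against 13.4 and 13.53 TPM, 1.41-fold lower without overlap. In H2023 the groups overlapped in both cultures, with values from 12.69 to 16.22 TPM in normal culture and from 16.68 to 22.98 TPM in oncospheres.

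THBD differed in opposite directions in the 2 lines. In A549 wild type read 6.21 and 5.75 TPM in normal culture and 8.72 and 8.97 TPM in oncospheres, against 2.36 and 1.58 TPM and 1.79 and 1.54 TPM in knockout. In H2023 wild type read 5.7 and 6.28 TPM and then 2.6 and 3.56 TPM, against 11.42 and 11.85 TPM and 7.51 and 10.76 TPM in knockout. Knockout was therefore 3.04-fold and 5.31-fold lower in A549 and 1.94-fold and 2.97-fold higher in H2023, and no pair of groups overlapped.

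**Figure D2:**
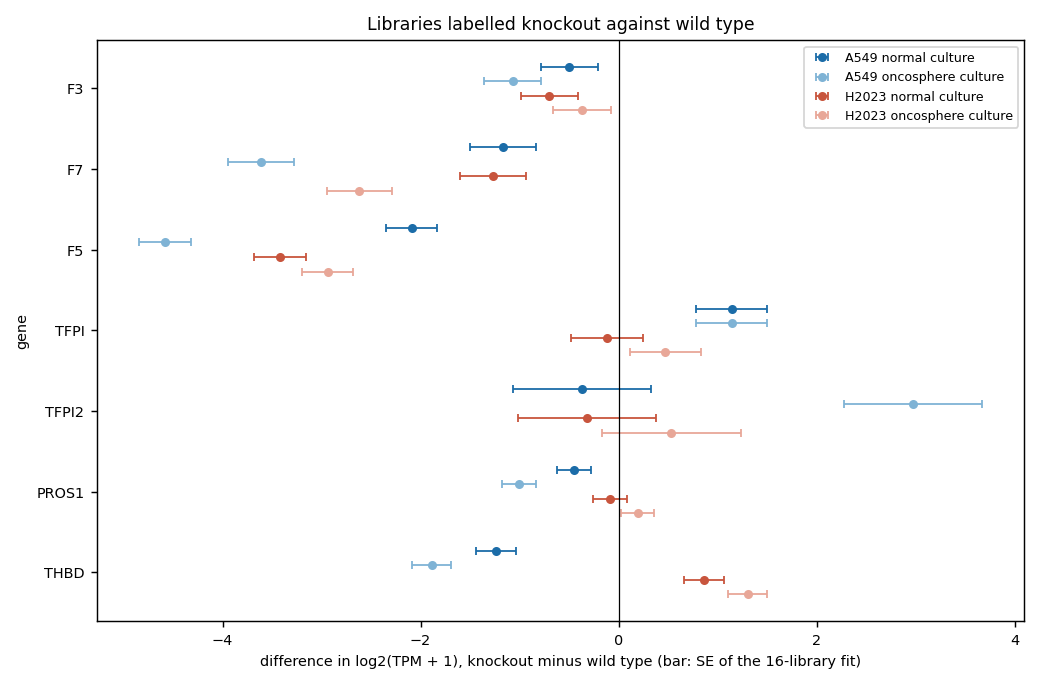
Difference in log2(TPM + 1), knockout minus wild type, for the 7 genes (vertical axis) in 4 comparisons (colours); points are differences of means of 2 against 2 libraries and bars the SE of the 16-library fit. F5 and F7 lie left of zero in all 4 comparisons, and the A549 and H2023 points of THBD lie on opposite sides.

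On the log2(TPM + 1) scale the F5 differences were -2.09, -4.58, -3.42 and -2.94 in A549 normal, A549 oncosphere, H2023 normal and H2023 oncosphere culture, each with an SE of 0.26. Those of F7 were -1.17, -3.61, -1.27 and -2.62, each with an SE of 0.33. In A549 normal culture 1 member was called higher and 3 lower, where 17.7% of all genes were called. In A549 oncospheres 2 were called higher and 5 lower, against 20.7% of genes. In H2023 normal culture 1 was called higher and 1 lower, against 3% of genes, and in H2023 oncospheres 1 higher and 2 lower, against 5.56%. These counts rest on the comparison that chose the members and are not read further. They fell to 2 members in A549 normal culture without wild-type replicate 2 or knockout replicate 1. In A549 oncospheres they fell to 4 without wild-type replicate 1 or knockout replicate 2. In H2023 normal culture 1 member was left without any one of the 4 libraries of that comparison, of the 2 A549 wild-type libraries in normal culture or of the 2 A549 knockout oncosphere libraries.

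The knockout differences were compared between lines with limma interaction contrasts, whose p-values carry the limit that the members were chosen with those differences known. For THBD the H2023 difference exceeded that of A549 by 2.10 (SE 0.28, adjusted p = 0.000902) in normal culture and by 3.19 (SE 0.28, adjusted p = 3.58e-05) in oncospheres. In normal culture 2 members were called, where 12.1% of all genes were, and in oncospheres 3, where 16.3% were. PROS1 was called in oncospheres, with an H2023 minus A549 value of 1.21 (SE 0.24, adjusted p = 0.00541). The authors' deposited tables gave the same directions for these 3 differences, with 2.49, 3.90 and 1.15 on their log2 scale.

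For F5 the line difference depended on the scale. In oncospheres H2023 minus A549 was 1.64 (SE 0.37, adjusted p = 0.0109 by limma), and 5.52 (adjusted p = 1.19e-16) when computed on the log2 fold changes that the authors' deposited tables give. In normal culture it was -1.33 (SE 0.37, adjusted p = 0.0375 by limma), but 1.08 (adjusted p = 0.657) from the authors' deposited tables. The call in normal culture was also lost in 10 of 16 limma fits that each left out 1 library, with values from -1.45 to -1.21 over the 16: without any of the 8 libraries in normal culture or either A549 knockout oncosphere library.

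The same held between cultures. In A549 the F5 difference was larger in oncospheres by -2.49 (SE 0.37, adjusted p = 0.00291 by limma) and that of F7 by -2.44 (SE 0.47, adjusted p = 0.00925 by limma), but computed from the authors' deposited tables the same 2 values were -0.53 (adjusted p = 0.905) and -1.78 (adjusted p = 0.53). In A549 2 members were called, where 9.71% of genes were. In H2023 no member was called by limma, where 0.00549% of genes were, and 1 member had an unadjusted p under 0.05. For F5 in H2023, the limma value was 0.48, while the authors' deposited tables gave a difference of 3.91 (adjusted p = 6.97e-09). F5 was the 1 member called in that way, where 0.39% of all genes were. The knockout level of F5 in H2023 oncospheres, 2.28 TPM, lay above the 0.055 TPM of normal culture.

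In wild-type cells several of these genes were higher in oncosphere than in normal culture. In A549 wild type 4 members rose and 1 fell, where 41.5% of all genes were called in either direction. F5 rose 7.50-fold (2.54 ± 0.26 SE on the log2 scale, limma adjusted p = 1.47e-05), F7 10.6-fold (2.72 ± 0.33 SE, limma adjusted p = 4.83e-05), TFPI 3.63-fold (1.82 ± 0.36 SE, limma adjusted p = 0.00147) and PROS1 4.79-fold (2.21 ± 0.17 SE, limma adjusted p = 1.64e-06). TFPI2 fell 4.86-fold (-2.30 ± 0.70 SE, limma adjusted p = 0.02). That fall was no longer called without wild-type replicate 2 in normal culture (-1.80, adjusted p = 0.132) or wild-type replicate 1 in oncospheres (-1.69, adjusted p = 0.156). THBD at 0.50 (adjusted p = 0.0648) and F3 at 0.09 (adjusted p = 0.825) did not pass the test.

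In H2023 the whole distribution of genes shifted with culture, so differences are also given relative to the median gene. The median difference over all genes was -0.184 in wild type and -0.117 in knockout. In wild type 943 genes were called higher and 4043 lower in oncospheres, and 1886 and 1764 after each library was centred on its median. For knockout the split was 1779 to 4146, and 2571 to 2767 after centring.

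In H2023 wild type 3 members rose and 1 fell, where 27.4% of genes were called. F7 rose 7.15-fold (2.30 ± 0.33 SE, limma adjusted p = 0.000468), or 2.48 above the median gene. TFPI rose 3.62-fold (1.95 ± 0.36 SE, limma adjusted p = 0.00187), or 2.13 above it. F5 rose 2.26-fold (1.11 ± 0.26 SE, limma adjusted p = 0.00868), or 1.29 above it. Its call was lost without wild-type replicate 2 in normal culture (0.99, adjusted p = 0.0599) or replicate 1 in oncospheres (1.00, adjusted p = 0.0511). THBD fell 1.94-fold (-0.79 ± 0.20 SE, limma adjusted p = 0.0121), or by 0.60 relative to the median gene. Its call was lost without the same libraries (-0.73, adjusted p = 0.0693, and -0.62, adjusted p = 0.0874), after median centring (-0.54, adjusted p = 0.0817) and without mitochondrial genes (-0.61, adjusted p = 0.06). PROS1 gave 0.35 (adjusted p = 0.16), and passed only after centring (0.59, adjusted p = 0.0226) or without mitochondrial genes (0.58, adjusted p = 0.0348).

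The knockout cells were compared between cultures in the same way. In A549 knockout 2 members were called, where 22.4% of genes were: TFPI rose 3.46-fold (1.82 ± 0.36 SE, limma adjusted p = 0.00313) and PROS1 3.29-fold (1.65 ± 0.17 SE, limma adjusted p = 4.48e-05). F5 gave 0.05 (adjusted p = 0.928) and F7 0.28 (adjusted p = 0.606) there. The A549 culture differences of -2.49 and -2.44 given above are also the tests of these values against those of wild type, and depend on the scale in the same way.

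In H2023 knockout 4 members were called, all higher in oncospheres, where 32.5% of genes were called. TFPI rose 5.86-fold (2.54 ± 0.36 SE, limma adjusted p = 0.000222) and F5 41.5-fold from a level of 0.055 TPM (1.58 ± 0.26 SE, limma adjusted p = 0.000733). PROS1 rose 1.58-fold (0.63 ± 0.17 SE, limma adjusted p = 0.0141), a call lost without knockout replicate 2 in normal culture (0.48, adjusted p = 0.118) or either knockout oncosphere library (0.62 and 0.64, adjusted p = 0.0577 each). F7 gave 0.94 ± 0.33 SE (limma adjusted p = 0.0473), a call lost in 7 of 16 fits that left out 1 library. Those were the fits without either A549 knockout library in normal culture (adjusted p = 0.062 each), either H2023 knockout library in normal culture (0.116 and 0.178), either H2023 wild-type oncosphere library (0.0521 and 0.0519) or H2023 knockout oncosphere replicate 1 (0.31). TFPI was the member called higher in oncospheres in both lines and both genotypes, with each of its calls kept in all 16 fits without 1 library. PROS1 and F5 were also higher without overlap in all 4 culture comparisons. PROS1 was not called in H2023 wild type, and F5 was not called in A549 knockout. There F5 read 0.05 and 0.02 TPM in oncospheres against 0 in both libraries of normal culture. How many of all genes share the pattern of TFPI or of PROS1 and F5 was not counted, so these patterns are not read further.

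**Figure D3:**
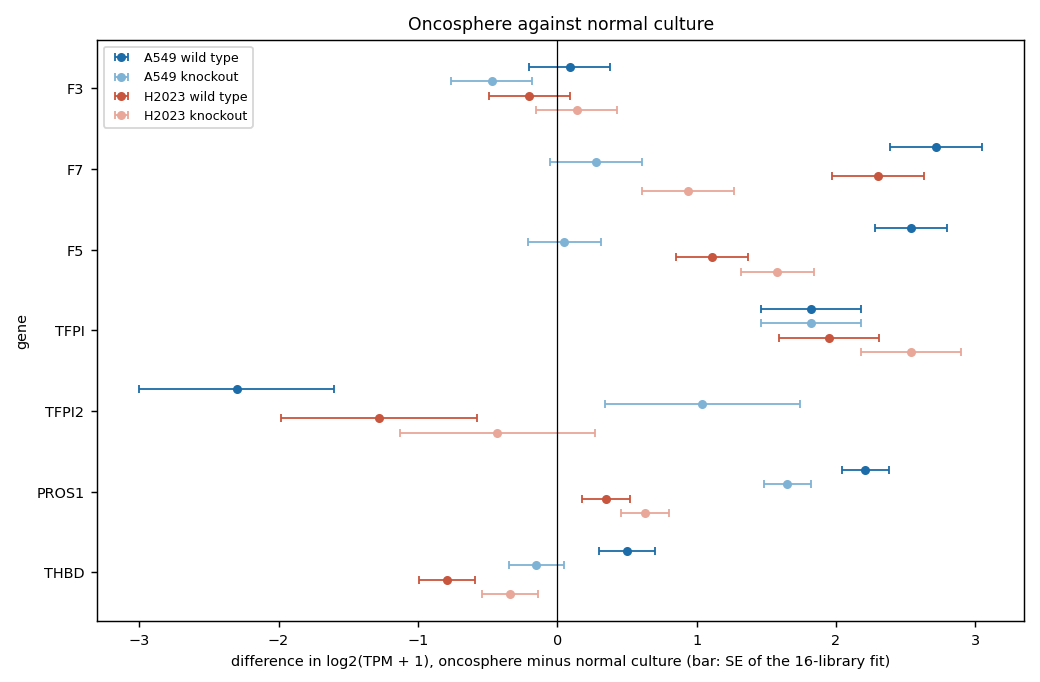
Difference in log2(TPM + 1), oncosphere minus normal culture, for the 7 genes (vertical axis) in 4 combinations of line and genotype (colours), with SE bars of the 16-library fit. TFPI lies right of zero in all 4, and F5 and F7 lie far to the right in both wild types and near zero in A549 knockout.

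The lines were compared in wild-type cells. TFPI averaged 183 TPM in H2023 against 18.3 TPM in A549 in normal culture (a log2 difference of 3.13, SE 0.36, limma adjusted p = 3.38e-05), and it was 9.98-fold higher in H2023 than in A549 oncospheres (3.26 ± 0.36 SE, limma adjusted p = 1.89e-05). F5 was 3.17-fold higher in H2023 in normal culture (1.41 ± 0.26 SE, limma adjusted p = 0.00116). In oncospheres its libraries overlapped (-0.02, adjusted p = 0.949). PROS1 was 4.58-fold lower in H2023 oncospheres (-2.15 ± 0.17 SE, limma adjusted p = 1.85e-06) and THBD 2.87-fold lower (-1.28 ± 0.20 SE, limma adjusted p = 0.000258). In normal culture 2 members were called, where 41.5% of genes were, and in oncospheres 3, where 47.8% were. The median gene was 0.119 higher in H2023 in normal culture, and TFPI and F5 lay 3.01 and 1.29 above it. The split of all genes there was 4847 higher and 2720 lower, and 3173 and 4424 after median centring. PROS1 in normal culture gave -0.29 (adjusted p = 0.202), and -0.50 (adjusted p = 0.0237) after centring.

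F7 and F10 lie side by side on chromosome 13, with 2113 bases between them. The 3 nearest protein-coding genes with rows on either side of F5 and of the F7 and F10 pair were examined for knockout against wild type, and 11 genes are given here. None of the 5 given around F5 had a difference as large as F5 in any of the 4. MCF2L, next to F7 and a guanine nucleotide exchange factor gene, fell 8.07-fold in A549 normal culture (-1.18 ± 0.19 SE, limma adjusted p = 0.0013) and 5.35-fold in A549 oncospheres (-1.48 ± 0.19 SE, limma adjusted p = 0.000169), and gave 0.07 and -0.09 in H2023. Its difference was thus about that of F7 in A549 normal culture (-1.17) and smaller than that of F7 in A549 oncospheres (-3.61). PROZ, next to F10, lay under 1 TPM and overlapped between genotypes in all 4 comparisons, and TUBGCP3, ATP11A, PCID2 and CUL4A were not called.

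SLC19A2, a thiamine transporter gene next to F5, was lower without overlap in all 4 comparisons, by 1.59-fold, 1.90-fold, 1.62-fold and 1.69-fold. Its call in A549 oncospheres (-0.81 ± 0.15 SE, limma adjusted p = 0.00222) held without each library. Its calls in A549 normal culture (adjusted p = 0.0227) and H2023 oncospheres (adjusted p = 0.0215) were each lost in 3 such fits: without wild-type replicate 1 (-0.56) or 2 (-0.57) or knockout replicate 2 (-0.46), and without wild-type replicate 1 (-0.53) or knockout replicate 1 (-0.70) or 2 (-0.69). In H2023 normal culture it gave -0.60 (adjusted p = 0.055). CCDC181, the next gene, lay at 1.99 TPM or less and was also lower without overlap in all 4. It was called in A549 oncospheres (-0.63, limma adjusted p = 0.0211), H2023 normal culture (-0.84, limma adjusted p = 0.0221) and H2023 oncospheres (-1.03, limma adjusted p = 0.00643), and these calls were lost in 2, 3 and 1 of 16 fits without 1 library: without wild-type replicate 2 (-0.50) or knockout replicate 2 (-0.54), without wild-type replicate 2 (-0.72) or knockout replicate 1 (-0.75) or 2 (-0.93), and without knockout replicate 2 (-0.97). BLZF1, METTL18 and SCYL3 were not called in any of the 4.

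**Figure D4:**
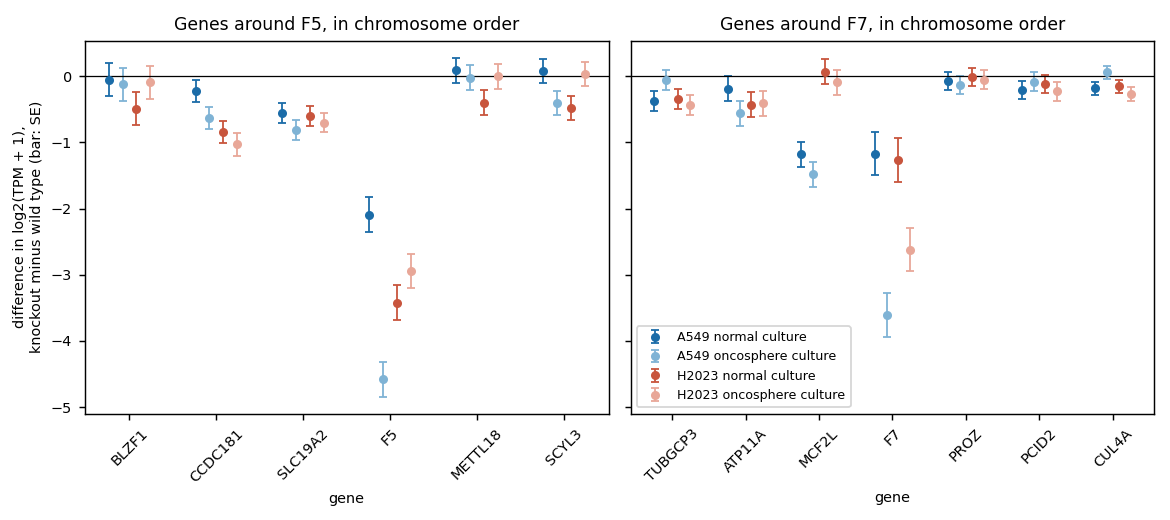
Difference in log2(TPM + 1), knockout minus wild type, of F5 and F7 and of 11 protein-coding genes near them, in chromosome order (F10, next to F7, has no value); colours are the 4 comparisons and bars the SE. F5 lies lower than the 5 genes plotted around it in all 4 comparisons and F7 lower than the 6 around it except in A549 normal culture, where MCF2L lies at -1.18 and F7 at -1.17.

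Other genes of coagulation were taken as a list of 31, of which 21 had rows. In A549 normal culture 2 rose and 3 fell in knockout, in A549 oncospheres 3 rose and 3 fell, and in each H2023 culture 1 fell. Over all genes the shares called were 17.7%, 20.7%, 3% and 5.56%. Their median differences were 0.01, -0.13, -0.04 and -0.05, beside -0.033, 0.027, 0.011 and 0.056 over all genes. Of those called higher in knockout, GAS6 rose 2.95-fold in A549 normal culture (1.36 ± 0.32 SE, limma adjusted p = 0.013). FURIN rose 2.08-fold there (1.01 ± 0.30 SE, limma adjusted p = 0.0344). F2R rose 2.62-fold in A549 oncospheres (1.31 ± 0.28 SE, limma adjusted p = 0.00613). Without 1 library these values ranged from 1.17 to 1.56, 0.76 to 1.26 and 1.08 to 1.54, and each call was lost in some fits. F2, which encodes prothrombin, fell 18.4-fold in A549 oncospheres, from 12.6 to 0.685 TPM (-3.08 ± 0.28 SE, limma adjusted p = 1.46e-05). In H2023 oncospheres it gave -0.14 (adjusted p = 0.834), and the line difference was 2.94 (SE 0.39, limma adjusted p = 0.000473). In A549 wild type F2 was 4.59-fold higher in oncospheres than in normal culture (1.86 ± 0.28 SE, limma adjusted p = 0.000225).

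Among the other anticoagulants, SERPINA10, the protein Z-dependent inhibitor of factor X, was listed at 0 in both A549 knockout groups and averaged 1.68 TPM in wild-type oncospheres. PROCR, the endothelial protein C receptor gene, was lower in H2023 oncospheres than in normal culture, 2.13-fold in wild type (-1.09 ± 0.18 SE, limma adjusted p = 0.00117) and 3.06-fold in knockout (-1.61 ± 0.18 SE, limma adjusted p = 5.63e-05). SERPINA5, protein C inhibitor, rose in A549 oncospheres from 0.02 to 6.33 TPM in wild type (2.84 ± 0.30 SE, limma adjusted p = 1.55e-05). All 7 genes of vitamin K-dependent carboxylation and of factor V secretion had rows. MCFD2, a cargo receptor subunit for factor V, rose 1.91-fold with oncosphere culture in A549 knockout (0.92 ± 0.13 SE, limma adjusted p = 0.000368).

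Because factors V and VII are liver products, 11 transcription factors known from hepatocytes were examined, all with rows. The list was chosen with earlier results of these data known, so its knockout p-values are not independent support. In knockout 8 of the 11 fell in A549 normal culture (median difference -1.10) and 8 in A549 oncospheres (median -1.39), and limma called none of them higher. Of all genes 17.7% and 20.7% were called there, in either direction, and 3% and 5.56% in H2023 normal and oncosphere culture. The first count fell to between 5 and 8 and the second to between 7 and 8 when 1 library was left out. In H2023 normal culture CEBPB alone fell (-0.98 ± 0.15 SE, limma adjusted p = 0.00465), a call lost without H2023 knockout replicate 1 (-0.90, adjusted p = 0.0548). In H2023 oncospheres limma called 0 of the 11, with 3 at an unadjusted p under 0.05, and the medians were -0.25 and 0.00 in the 2 H2023 cultures.

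HNF4A, a nuclear receptor of hepatocytes, fell 10.4-fold in A549 normal culture (-2.71 ± 0.45 SE, limma adjusted p = 0.00174) and 18.7-fold in A549 oncospheres (-3.48 ± 0.45 SE, limma adjusted p = 0.000197). In H2023 it gave -0.58 (adjusted p = 0.557) and -0.31 (adjusted p = 0.757), with group means of 2.0 TPM or less. The line differences were 2.12 (SE 0.63, limma adjusted p = 0.0483) and 3.17 (SE 0.63, limma adjusted p = 0.00534). The call of the first of these was lost in 12 of 16 fits that left out 1 library (1.56 to 2.69, limma adjusted p up to 0.174) and under 4 of 7 other settings, and that of the second in none of either. FOXA1, a forkhead factor, was lower in knockout without overlap in all 4 comparisons, by 3.16-fold, 2.83-fold, 2.67-fold and 2.29-fold in the order A549 normal, A549 oncosphere, H2023 normal and H2023 oncosphere culture. It was called in A549 normal culture (-1.11 ± 0.33 SE, limma adjusted p = 0.0365) and A549 oncospheres (-1.39 ± 0.33 SE, limma adjusted p = 0.0102), and not in H2023 (-1.01, adjusted p = 0.13, and -1.06, adjusted p = 0.0814). The first call was lost without wild-type replicate 2 (-0.63) or either knockout library (-1.11 each), and the second without wild-type replicate 2 (-1.23) or knockout replicate 1 (-1.04). Between cultures FOXA1 was 3.58-fold higher in oncospheres in A549 wild type (1.71 ± 0.33 SE, limma adjusted p = 0.00131) and gave 0.94 (adjusted p = 0.0523) in H2023 wild type. F5 and F7 were lower in the knockout libraries of both lines.

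**Figure D5:**
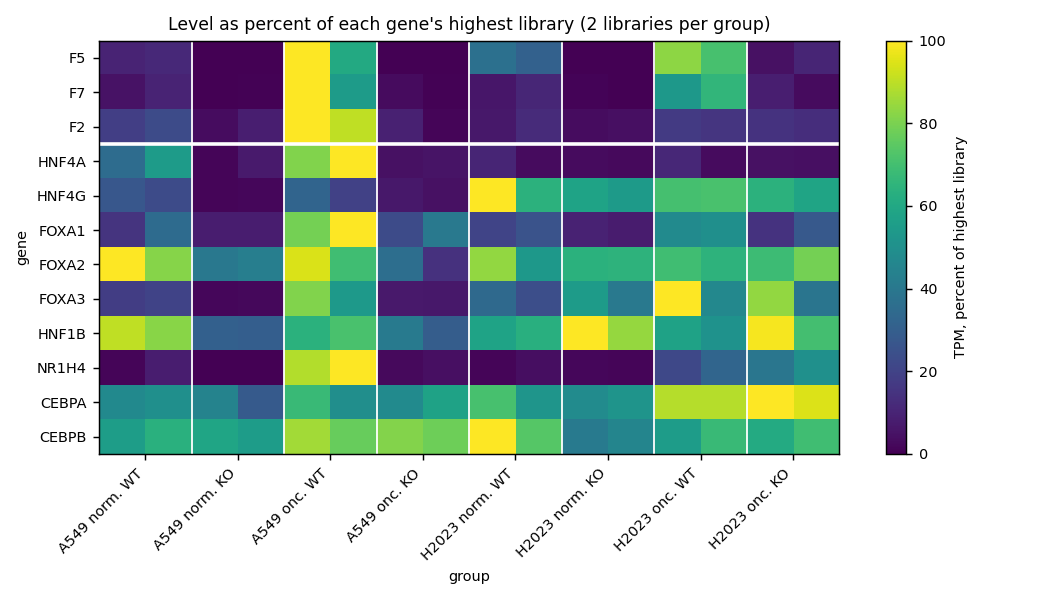
TPM of F5, F7, F2 and of liver-type transcription factors in each of the 16 libraries, as percent of the gene's own highest library (colour scale); 2 columns per group. F5, F7, FOXA1 and HNF4G are lower in knockout than in wild type in both lines, and limma called FOXA1 and HNF4G in A549 alone. HNF4A is low in the 4 A549 libraries labelled knockout and in all 8 H2023 libraries, wild type included. The part of these factors in the F5 and F7 values was not tested.

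Hepatocyte markers, taken as a sum, were lower in knockout than in wild type in all 4 comparisons, as F5 and F7 were. Of 6 markers 4 had rows, ALB, APOH, AHSG and SERPINA1, and APOA1 and TTR had none. Their summed TPM was 137 to 192 in wild-type A549 oncospheres against 10.6 to 17.5 in knockout, and 286 to 352 in wild-type H2023 oncospheres against 13.8 to 31.7 in knockout. In normal culture it was 18.2 to 19.7 against 0.79 to 2.15 in A549, and 3.69 to 5.83 against 1.3 to 1.57 in H2023. Wild-type H2023 thus had the lower sum in normal culture, while its F5 was 3.17-fold higher than in A549. Few of the markers reached 1 TPM in normal culture: 1 in each A549 group, 2 in H2023 wild type and 0 in H2023 knockout. ALB, the albumin gene, made up most of the H2023 sum, at 335.91 and 268.77 TPM in wild-type oncospheres and 18.71 and 2.38 TPM in knockout. Each library was labelled as 1 lung cancer cell line, so these sums are read as expression of marker genes, not as counts of hepatocytes. Fewer cells with such expression and less RNA per cell cannot be told apart in bulk libraries. The part of such cells in the F5 and F7 values was not tested. Other marker sums moved with genotype too, and their part was not tested either. Of 4 leukocyte markers CD14 and CD68 had rows and PTPRC and CD3E had none, and their sum was 144 to 226 TPM in wild-type A549 oncospheres against 58.6 to 78.8 in knockout, with overlap in the other 3 comparisons. The sum of the 6 epithelial markers was 9170 to 9350 TPM in wild type against 2570 to 5010 in knockout in A549 normal culture. In H2023 it was higher in knockout, at 12300 to 13000 against 8750 to 9400 TPM in normal culture and 7770 to 8270 against 4330 to 4570 in oncospheres, and in A549 oncospheres the groups overlapped. Of 4 fibroblast markers 2 had rows, and their sum was lower in knockout without overlap except in A549 normal culture. In H2023 normal culture it was 2.74 to 4.26 against 7.9 to 8.42 TPM. A549 oncospheres gave 1.32 to 3.29 against 5.29 to 5.7 TPM, and H2023 oncospheres 3.98 to 4.04 against 6.24 to 9.96 TPM. NAPSA was higher in knockout without overlap except in H2023 normal culture. Of the endothelial markers, which bear on THBD, TFPI and PROCR, only PECAM1 had a row, at 2.76 TPM or less. PECAM1 was lower in knockout without overlap except in H2023 oncospheres.

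The genes most like F5 across the 16 libraries were sought among 12994 genes that reached 5 TPM, by the mean absolute difference between levels written as percent of each gene's highest library. NDNF (5.96 percentage points), TC2N (6.43), BST2 (10.2), ERBB3 (10.3) and KCNJ16 (11) were nearest, and the median gene stood at 48.2. For F7 they were TC2N (5.63), CACNA1D (6.62), NDNF (6.99), TOX3 (7.14) and ADGRV1 (7.36), with a median of 50.7. F5 and F7 differed from each other by 7.17 points, and from the other 5 members by 20.1 to 42.5. The 16 libraries include the knockout differences known when the members were chosen, so these likenesses are not independent support. TC2N read 57.61 and 50.85 TPM in wild-type A549 oncospheres and 3.54 and 2.94 TPM in knockout. Not every one of these genes was lower in every knockout group. TOX3 read 1.06 and 0.82 TPM in wild-type H2023 in normal culture and 1.28 and 1.54 TPM in knockout. BST2 read 0 and 0.16 TPM in wild-type A549 in normal culture and 0.07 TPM in both knockout libraries.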

How the data were processed

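RNA sequencing of 16 libraries was read from 4 tables, 1 per line and culture. The submitters' processing notes name HISAT2, StringTie and GRCh38, with no role or version. Expression values were TPM made by the authors. The deposited tables also hold a mean normalized count over 4 libraries (a signal), a log2 fold change with its standard error, a test statistic (a score) and p-values, per the file headers. In all rows the deposited score has the opposite sign to the fold change, which was used for direction. The first row of each identifier was kept, leaving 18227 genes of 18361 rows. TPM keeps no depth, so depth and its precision are unknown.

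limma 3.58.1 (R 4.3.3) was fitted with a mean-variance trend to log2(TPM + 1) of the 16 libraries in 8 groups, two-sided, without a filter, and was tested on simulated data. P-values were adjusted by Benjamini-Hochberg over all genes and called under 0.05. Libraries of different tables were compared because TPM is scaled within a library. Knockout effects were also compared between the authors' deposited tables by a z statistic built from their log2 fold changes and standard errors, with the same adjustment.

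The members and all lists were chosen with earlier results of these data known. All members were named. Of the pathway list, up to 3 called genes of largest change per comparison with a library of at least 1 TPM could be named, and PROZ is named as a neighbour. Of the liver-type list, genes with a library of at least 5 TPM could be named. The 3 nearest neighbours on each side and the 5 most like genes were fixed by rule; 1 gene of the liver-type list and 1 neighbour are not reported here. The TPM of TC2N, TOX3 and BST2 was named after the values were seen. Alternatives were a pseudocount of 0.1 TPM, a mean of at least 1 TPM, median centring, removal of 15 mitochondrial genes, no trend, the libraries of 1 table or line, a replicate block, the authors' deposited tables, and leaving out each library. Promoter entries were matched by symbol for 7 of the 8 members.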

Additional observations from a re-analysis of the deposited data

Results flagged for a closer look

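The difference between knockout and wild type itself differed between cultures or lines for 7 values, each by a limma test of that difference over 16 libraries, in members chosen with the knockout differences known. In A549 the oncosphere difference minus the normal-culture difference was -2.49 for F5 and -2.44 for F7, and both calls were lost with the authors' deposited fold changes. Between lines, H2023 minus A549, F5 gave -1.33 in normal culture and 1.64 in oncospheres, and the first changed sign with the authors' deposited tables. PROS1 gave 1.21 in oncospheres. THBD gave 2.10 in normal culture and 3.19 in oncospheres, lower in each of the 4 A549 knockout libraries and higher in each of the 4 H2023 knockout libraries than in wild type of the same culture.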

How the results depend on the processing

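The 99 tested values were recomputed without each library in turn (1584 values): 1455 kept direction and call, 110 lost a call, 5 gained one and 14 changed sign. Under the other settings (711 values) these numbers were 663, 35, 9 and 4. The 28 knockout differences of members moved by 1 SE or more in 26 of 448 values without 1 library, where 8 changed sign, and in 26 of 224 under other settings, where 0 did. Members called for knockout against wild type ranged without 1 library from 2 to 4 (A549 normal), 4 to 7 (A549 oncosphere) and 1 to 2 (H2023 normal). Those for oncosphere culture ranged from 2 to 5 (H2023 wild type) and 2 to 4 (H2023 knockout), and those for the line difference in normal culture from 1 to 2. With the 4 libraries of 1 table, 0 members were called in H2023 normal and 0 in H2023 oncosphere culture. The culture difference in A549 was called for 1 member with a pseudocount of 0.1 TPM and for 0 with the authors' deposited tables, and that in H2023 for 1 with those tables. The line difference in normal culture was called for 1 member with that pseudocount and for 1 with those tables. Signs changed after median centring for F3 with culture in H2023 wild type (0.04) and F7 between lines in normal culture (-0.10), without mitochondrial genes for F5 between lines in oncospheres (0.04), and with the authors' deposited tables for the F5 line difference in normal culture (1.08). Except for that last one, none of these had been called. Without 1 library, values that changed sign ranged as follows, and none had been called. With culture, F3 ranged from -0.12 to 0.31 in A549 wild type, -0.62 to 0.22 in H2023 wild type and -0.21 to 0.48 in H2023 knockout, and THBD from -0.34 to 0.05 in A549 knockout. Between lines in normal culture F7 ranged from -0.18 to 0.41 and TFPI2 from -0.79 to 0.39. Between lines in oncospheres F3 ranged from -0.15 to 0.68, F7 from -0.71 to 0.10, F5 from -0.37 to 0.32 and TFPI2 from -0.21 to 1.84. For knockout against wild type, TFPI2 ranged from -1.12 to 0.38 in A549 normal, -0.91 to 0.26 in H2023 normal and -0.49 to 1.56 in H2023 oncosphere culture, TFPI from -0.76 to 0.51 and PROS1 from -0.24 to 0.06 in H2023 normal culture, and PROS1 from -0.03 to 0.41 and F3 from -0.78 to 0.05 in H2023 oncospheres. The cause was not tested.

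The deviations of same-numbered wild-type and knockout libraries had correlations of 0.0749, 0.131, 0.0275 and 0.461 over 14823 genes in A549 normal, A549 oncosphere, H2023 normal and H2023 oncosphere culture. They deviated together most in H2023 oncospheres, but not in every culture, so the numbers were not taken as a pairing. With the replicate block 3 tested values changed their call. F7 in H2023 knockout with culture lost it (0.94, limma adjusted p = 0.0626), and THBD in A549 wild type with culture (0.50, limma adjusted p = 0.0388) and the TFPI2 culture difference in A549 (3.34, limma adjusted p = 0.0377) gained it. The split of calls in H2023 oncospheres, knockout against wild type, was 577 higher and 437 lower, and 401 and 724 after median centring. Low TPM limits folds of F5 and F7 in knockout, since depth is unknown.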
